A study of Mus musculus with 12 samples.

Results

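On a diet with quercetin, the jejunum of POR-null mice was compared with that of wild-type mice. The comparison took 6 of the study's 12 arrays, chosen by their titles: 3 of POR-null mice on quercetin and 3 of wild-type mice on quercetin. POR, the cytochrome P450 reductase, passes electrons from NADPH to the microsomal cytochromes P450. All mice were males of the C57BL/6 strain, aged 6 to 8 weeks, and both genotypes first ate a soya-free powdered diet for 14 days. Quercetin, a flavonol found in many plants, was then mixed into that diet at 6.2 g per kg, given as 7 mg per mouse, and tissue was taken after 24 h. The remaining 6 arrays came from mice of the same genotypes that were kept on the plain diet, 3 arrays for each, and are called the control diet here. Each array carried RNA of scraped epithelium from the jejunum, pooled from 3 mice, so that every group was 3 pools of 9 mice in all. The spread below is therefore between pools and not between single mice.

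The labels do not say by which allele or in which tissue the reductase was removed. Published work describes a mouse line of this kind in which albumin-driven Cre removes the enzyme from hepatocytes, and the labels do not state whether it was used here. No check of the genotype on the disrupted gene itself was made, as that gene was not analysed here. Markers of intestinal epithelium were read beside those of liver, which cannot tell the jejunum from other parts of the small intestine. The ileal gene Fabp6, described below, ran from 6.69 to 12.18 over the same arrays. Across the 6 quercetin arrays the microvillus protein gene Vil1 stood at log2 intensities of 12.12 to 12.3 and the enterocyte fatty acid binding protein gene Fabp2 at 13.54 to 13.72. The hepatocyte genes Fga and Alb stood at 3.66 to 3.9 and 5.74 to 6.08, on arrays whose lowest values were 2.71 to 2.77 and whose medians were 5.97 to 6.01.

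Cholesterol is built from acetyl-CoA through mevalonate, farnesyl diphosphate and squalene, and then through lanosterol in a series of reactions on the endoplasmic reticulum membrane. Lanosterol demethylase (Cyp51) is itself a cytochrome P450, and squalene epoxidase (Sqle) also takes its electrons from the reductase. The genes of the pathway share a transcription factor, SREBP-2, the product of Srebf2, which is released from the membrane and enters the nucleus when sterols in the membrane are low. In the small intestine, cholesterol also arrives from the diet and from bile, and the transporters ABCG5, ABCG8 and ABCA1, targets of the oxysterol receptor LXR, carry it back out of the cell.

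Of 22626 probe sets tested, 0 passed an adjusted p under 0.05 in a limma model of all 12 arrays, where all 4 groups share 1 estimate of the spread (0.0% of probe sets, lowest adjusted p 0.373). At an unadjusted p under 0.05 there were 877, of which 414 were higher and 463 lower in POR-null pools. The same model fitted to the 6 quercetin arrays alone called 24 probe sets (0.106%), 21 higher in POR-null mice (0.0928%) and 3 lower (0.0133%). Of these, 22 carried a single gene symbol and named 16 genes, 13 higher and 3 lower, and 2 probe sets had no single gene symbol here. Sterol synthesis and its control held 15 of the 24 probe sets, in 9 genes.

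The count of the 12-array model depended on 1 array outside the comparison. In POR-null control pool 3 the sterol genes stood near the wild-type level, while the other 2 POR-null control pools stood near the level of the POR-null quercetin pools. Hmgcs1, for example, read 11 and 10.8 in POR-null control pools 1 and 2 and 9.29 in pool 3, against 8.86 to 9.71 in wild-type control pools. With that array left out, the model of the remaining 11 arrays called 19 probe sets between the genotypes on quercetin, 17 of them higher, and 17 of the 24 were among the 19. These were the 15 probe sets of sterol genes and the 2 without a single gene symbol. Leaving out that array kept the differences on quercetin and changed only the estimate of the spread. For Cyp51 the difference stayed at 1.74 and the SE went from 0.54 to 0.28. That array stood apart in the sterol genes, so which genes passed was partly set by its removal and is no separate support for the 24. The called probe sets of the other 7 genes did not pass in those 11 arrays, with limma adjusted p values of 0.0778 for Krt12, 0.117 for Cubn, 0.244 for Aldoc, 0.285 for Sdc4, 0.434 for Ada and 0.997 for Abca1 and Dbp. Leaving out each of the 6 quercetin arrays in turn, 8 of the 16 genes were called every time: Hmgcs1, Idi1, Fdps, Fdft1, Sqle, Cyp51, Msmo1 and Krt12. The other 8 lost the call without wild-type quercetin pool 2, with limma adjusted p values from 0.0561 for Sdc4 to 0.191 for Dbp. Sdc4 was called in the other 5 refits, Cubn, Ada, Abca1, Hsd17b7 and Dbp in 2 of 6, and Srebf2 and Aldoc in 1 of 6. Both models are given below for the main genes, and a gene is said to have passed only in the one named. Differences are POR-null minus wild-type on the log2 scale, with the SE of the 12-array model (n = 3 pools in each group) unless another is stated.

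**Figure D1:**
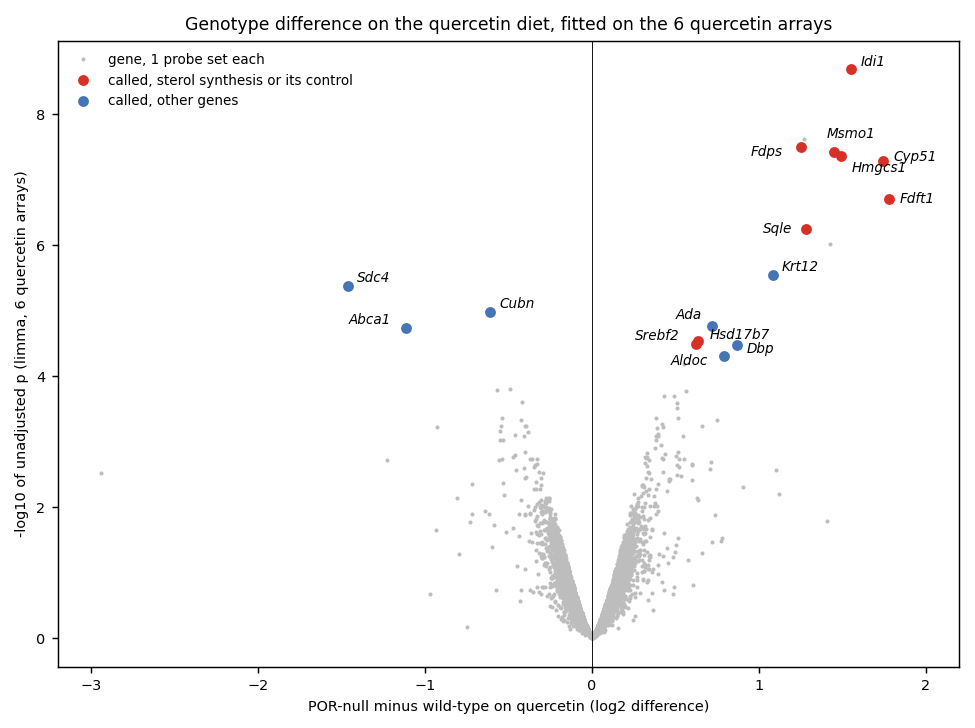
Each grey point is 1 of 12393 genes, with the log2 difference between POR-null and wild-type pools on quercetin on the x axis and -log10 of the unadjusted limma p from the 6 quercetin arrays on the y axis. Coloured points are the 16 named genes called at an adjusted p under 0.05, each at its called probe set with the lowest p, in red for sterol synthesis or its control and in blue for other genes; 3 of them (Sdc4, Abca1 and Cubn) lie to the left of 0.

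The promoters of 5 sterol enzymes that passed are shown because these genes stood together in all 6 pools, and that of Aldoc because it passed outside the pathway and holds the sterol element. Aldoc has 2 starts in RefSeq, and the one shown was picked because its bases hold that element. The match in Aldoc was thus fixed by the choice. The sequences are the 250 bases before the start of the gene, or before the picked start of Aldoc, in RefSeq on GRCm38.p6, read 5′ to 3′ on the strand of the gene. Capitals mark CCAAT boxes, written CCAAT or on the other strand ATTGG, and the sterol element TCACNCCAC, searched on both strands.
Hmgcs1 (chr13:119690101-119690350, plus strand): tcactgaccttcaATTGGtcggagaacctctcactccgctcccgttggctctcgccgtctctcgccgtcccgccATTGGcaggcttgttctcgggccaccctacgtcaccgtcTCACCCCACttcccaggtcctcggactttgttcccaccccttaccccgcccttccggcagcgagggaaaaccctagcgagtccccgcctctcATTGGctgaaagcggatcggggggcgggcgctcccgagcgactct
Idi1 (chr13:8885356-8885605, plus strand): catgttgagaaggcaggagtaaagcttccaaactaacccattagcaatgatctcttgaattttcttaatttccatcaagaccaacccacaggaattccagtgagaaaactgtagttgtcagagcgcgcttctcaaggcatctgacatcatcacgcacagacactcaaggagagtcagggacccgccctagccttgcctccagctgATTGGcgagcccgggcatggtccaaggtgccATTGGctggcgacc
Msmo1 (chr8:64733579-64733828, minus strand): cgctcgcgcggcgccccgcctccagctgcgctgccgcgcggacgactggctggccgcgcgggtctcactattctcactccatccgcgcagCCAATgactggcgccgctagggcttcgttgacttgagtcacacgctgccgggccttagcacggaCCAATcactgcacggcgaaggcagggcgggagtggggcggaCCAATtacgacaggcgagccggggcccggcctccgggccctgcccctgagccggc
Cyp51 (chr5:4104698-4104947, minus strand): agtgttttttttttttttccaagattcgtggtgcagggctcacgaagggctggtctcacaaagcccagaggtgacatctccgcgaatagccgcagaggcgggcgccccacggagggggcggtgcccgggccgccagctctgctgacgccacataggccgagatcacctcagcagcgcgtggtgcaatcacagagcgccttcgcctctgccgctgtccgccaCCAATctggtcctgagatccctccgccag
Hsd17b7 (chr1:169969206-169969455, minus strand): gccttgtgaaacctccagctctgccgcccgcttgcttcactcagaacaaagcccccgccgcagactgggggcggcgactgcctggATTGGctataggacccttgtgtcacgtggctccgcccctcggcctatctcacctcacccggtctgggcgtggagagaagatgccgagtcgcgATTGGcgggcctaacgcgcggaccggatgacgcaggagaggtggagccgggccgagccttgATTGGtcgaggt
Aldoc (chr11:78322823-78323072, plus strand): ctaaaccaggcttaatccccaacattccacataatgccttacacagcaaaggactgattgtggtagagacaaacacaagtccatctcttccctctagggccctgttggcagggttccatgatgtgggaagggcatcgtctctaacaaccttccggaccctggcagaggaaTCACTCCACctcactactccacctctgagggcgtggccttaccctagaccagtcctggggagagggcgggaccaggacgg
Of the 19 measured enzymes of the pathway, 16 had a promoter in the table. The CCAAT box, the site of NF-Y, a factor that SREBP-2 works with, was found in 16 of 16, against 39.9% of 9887 genes on the array with a promoter of the same length. The sterol element was found in 1 of 16, Hmgcs1, against 1.29%, and the GC box GGGCGG in 14 of 16, against 57.0%. The E-box CACGTG was in 3 of 16, against 9.19%. No match of one kind overlapped a match of another in the capitals above. In Hmgcs1 the sterol element began 137 bases before the start and the nearest CCAAT box 45 bases before it. A match describes these letters only and was not tested as a binding site.

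The first steps, from acetyl units to farnesyl diphosphate, were measured by 7 genes, of which 6 had all 3 POR-null pools above all 3 wild-type pools. Over all 12393 genes, 3.77% had their pools separated in that direction. The 7 genes had a median difference of 0.56, against -0.01 over all genes, and 3 of them passed in the 6 arrays, where 0.0888% of genes passed in that direction by the same probe set. Hmgcs1, the cytosolic HMG-CoA synthase that begins the branch, read 9.43, 9.53 and 9.89 in wild-type pools and 11.03, 11.13 and 11.16 in POR-null pools. The lowest POR-null pool was well above the highest wild-type pool, and the difference was 1.49 ± 0.33, or 2.81-fold (limma adjusted p 0.000193 in 6 arrays, 0.415 in 12). Its 4 probe sets gave 1.42 to 1.57, and all 4 passed in the 6 arrays.

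Idi1, the isomerase that makes the reactive isoprene unit, read 7.29, 7.13 and 7.27 in wild-type pools and 8.54, 8.6 and 8.35 in POR-null pools. Its difference was 1.27 ± 0.30, or 2.41-fold (limma adjusted p 0.000193 in 6 arrays, 0.538 in 12), and a second, dimmer probe set gave 1.55. Fdps, farnesyl diphosphate synthase, read 7.72, 7.83 and 7.93 against 9.02, 9.22 and 8.99. The pools did not overlap in either gene, and Fdps differed by 1.25 ± 0.32 (limma adjusted p 0.000193 in 6 arrays, 0.616 in 12). The second probe set of Fdps, at a mean log2 intensity of 3.34, differed by -0.04.

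The kinases and the decarboxylase between them differed less. Mevalonate kinase (Mvk) differed by 0.56 ± 0.23, phosphomevalonate kinase (Pmvk) by 0.50 ± 0.17 and the decarboxylase Mvd by 0.55 ± 0.16, each with separated pools and none passing (limma adjusted p 0.105, 0.356 and 0.239 in 6 arrays). Ggps1, which makes geranylgeranyl diphosphate on a side branch to protein prenylation, was the 1 member of 7 below 0, at -0.04 ± 0.10, with overlapping pools.

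From squalene to cholesterol, 9 of 12 measured genes had all POR-null pools above all wild-type pools, against 3.77% of all genes. In the 6 arrays 5 of them passed, against 0.0888% of genes in that direction by the same probe set, and the median difference was 0.50. Fdft1, squalene synthase, read 7.04, 7.09 and 7.68 in wild-type pools and 8.61, 8.8 and 8.67 in POR-null pools. The difference was 1.42 ± 0.36 (limma adjusted p 0.00181 in 6 arrays, 0.612 in 12). Its probe sets disagreed: another gave 1.78 and also passed, and 2 gave -0.04 and 0.06.

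Both Sqle and Cyp51, which take electrons from the reductase, passed in the 6 arrays. Sqle read 7.54, 7.52 and 8.04 in wild-type pools and 8.95, 8.99 and 9.01 in POR-null pools, where it was nearly constant. It differed by 1.28 ± 0.39, or 2.43-fold (limma adjusted p 0.00117 in 6 arrays, 0.947 in 12). Cyp51 read 5.98, 6.18 and 6.6 against 7.9, 8 and 8.08. With 1.74 ± 0.54, or 3.34-fold, its difference was the largest in that direction among genes, each taken by its brightest probe set (limma adjusted p 0.000195 in 6 arrays, 0.974 in 12); its dimmer probe sets gave 0.73 and 0.19.

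Msmo1, the methylsterol monooxygenase that acts after Cyp51, read 8.94, 8.73 and 9.01 in wild-type pools and 10.22, 10.25 and 10.55 in POR-null pools. It differed by 1.45 ± 0.38 (limma adjusted p 0.000193 in 6 arrays, 0.646 in 12). Hsd17b7, the sterol ketoreductase of the same complex, read 7.42, 7.21 and 7.4 against 7.85, 8 and 8.09, a difference of 0.64 ± 0.11 (limma adjusted p 0.0339 in 6 arrays, 0.373 in 12). That was the lowest adjusted p of the 12-array model, and other probe sets shared it, such as those of Tcim and Mtfmt. The dimmer probe set of Hsd17b7 differed by 0.41 ± 0.16, with overlapping pools, and did not pass (limma adjusted p 0.796 in 6 arrays). The sterol dehydrogenase Nsdhl stood close to the threshold, with 0.55 ± 0.20 and separated pools (limma adjusted p 0.058 in 6 arrays).

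The other 6 enzymes between squalene and cholesterol did not pass in either model. The reductases Dhcr7 and Tm7sf2 differed by 0.44 ± 0.14 and 0.46 ± 0.18 and the isomerase Ebp by 0.22 ± 0.12, all with separated pools. The desaturase Sc5d and the reductase Lbr were at 0.03 ± 0.23 and 0.03 ± 0.18, with overlapping pools. Lanosterol synthase (Lss) read 5.77, 5.98 and 5.79 in wild-type pools and 5.52, 5.76 and 5.71 in POR-null pools, the 1 enzyme of 19 with all POR-null pools lower, at -0.18 ± 0.10.

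**Figure D2:**
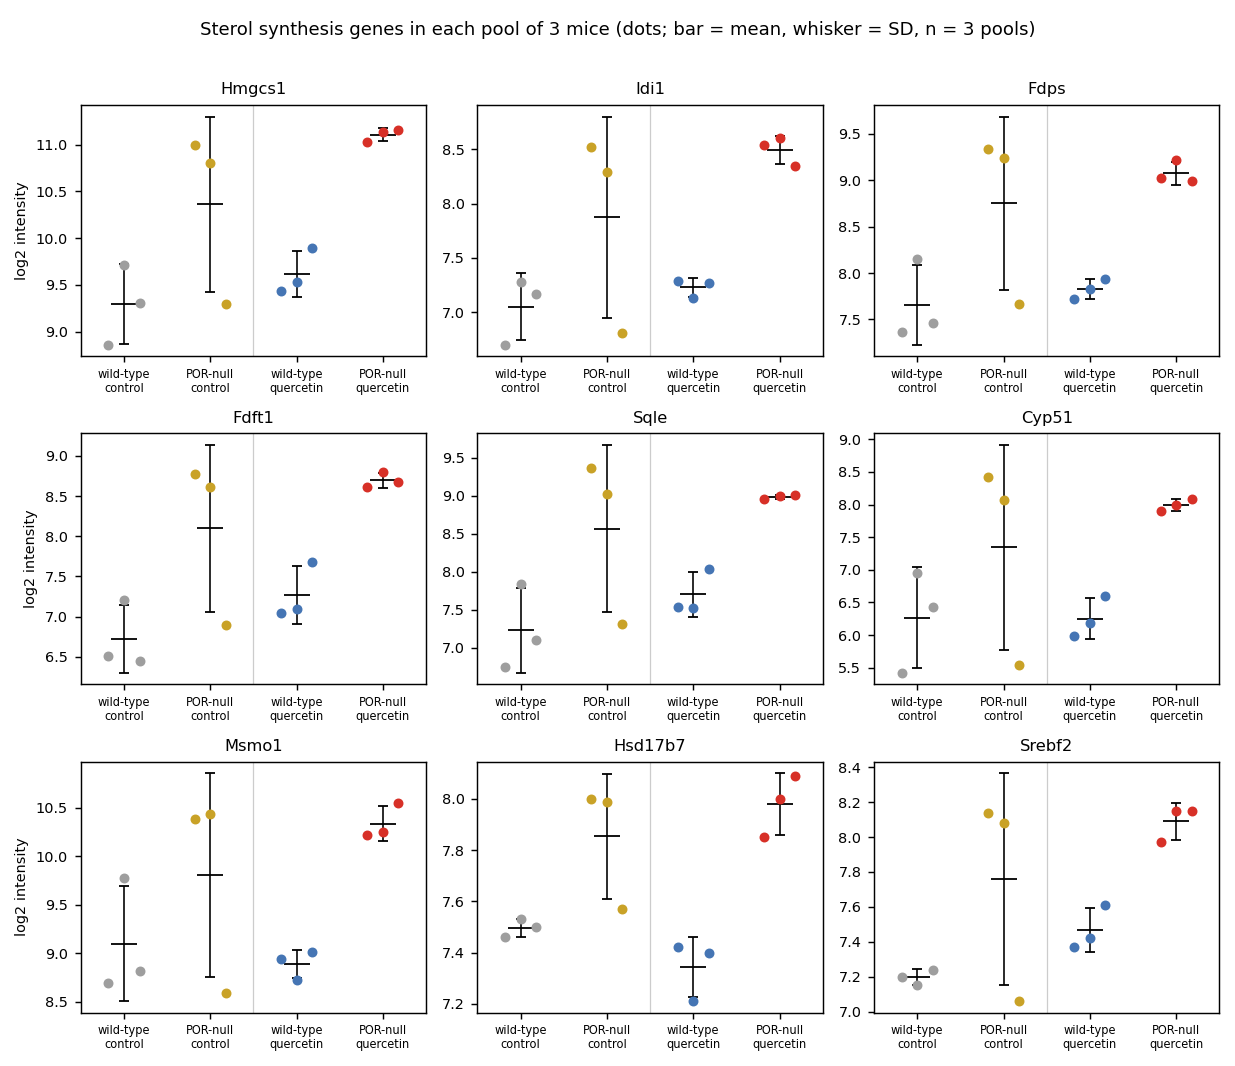
Log2 intensity (y axis) of 9 genes of sterol synthesis and its control in each pool of 3 mice, for the 4 groups of genotype and diet; points are pools, the bar is the mean and the whisker the SD (n = 3). In every panel the 3 POR-null quercetin pools lie above the 3 wild-type quercetin pools, and POR-null control pool 3 (the rightmost point of that group) lies apart from the other 2 pools of its group; Srebf2 is drawn at the probe set that passed.

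Among 7 genes of SREBP control and lipoprotein uptake, 2 had POR-null pools that were all higher and 1 had pools that were all lower, with a median of 0.05. Over all genes these shares were 3.77% and 5.59%. Srebf2 differed by 0.34 ± 0.10 at its brighter probe set, from 7.94, 7.9 and 8.15 to 8.26, 8.37 and 8.38, and by 0.62 ± 0.20 at the other, the one that passed in the 6 arrays (limma adjusted p 0.0343, against 0.997 in 12). Srebf1, whose product drives fatty acid genes, was at 0.05 ± 0.15 with overlapping pools. Stard4, a carrier of cholesterol inside the cell, differed by 0.22 ± 0.13, and Mylip, an LXR target that marks lipoprotein receptors for breakdown, by -0.30 ± 0.14, and neither passed. Scap, the SREBP escort, was at -0.16 ± 0.10 and Insig2, which retains it, at 0.31 ± 0.21.

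The 10 measured genes of sterol absorption and LXR were evenly split, 5 above 0 and 5 below, with a median of -0.01. Of these, 4 had all POR-null pools below all wild-type pools, where 5.59% of all genes did, and 0 were separated in the other direction. Abca1, which loads cholesterol on to nascent HDL, read 8.2, 7.85 and 7.9 in wild-type pools and 6.87, 6.52 and 7.22 in POR-null pools. It was lower by a log2 difference of -1.11 ± 0.45 and passed in the 6 arrays, where 0.00807% of genes passed in that direction by the same probe set (limma adjusted p 0.0227, against 0.997 in 12), while its 2 dimmer probe sets gave -0.47 and -0.42. In the control-diet pools, Abca1 ranged from 5.8 to 8.14 in POR-null mice and from 6.87 to 8.22 in wild-type mice.

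The paired transporters of the brush border that return sterols to the lumen were also lower in every POR-null pool. Abcg5 read 11.3, 11.07 and 10.89 against 10.66, 10.37 and 10.59, a difference of -0.55 ± 0.24. Abcg8 read 8.97, 8.71 and 8.76 against 8.47, 8.46 and 8.44, a difference of -0.36 ± 0.20. Neither passed in either model (limma adjusted p 0.212 for Abcg5 in 6 arrays). The fourth separated gene, Lcat, differed by -0.17 ± 0.08. Abcg1, another cholesterol exporter and LXR target, was at -0.03 ± 0.12, with overlapping pools.

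Fatty acid synthesis shared part of the pattern. Of 17 genes, 13 were above 0 and 4 had separated pools, all higher in POR-null mice, where 3.77% of all genes did. In either model 0 passed. Fasn, fatty acid synthase, read 6.67, 6.65 and 6.93 against 7.16, 7.3 and 7.04, a difference of 0.42 ± 0.14. The elongase Elovl6 differed by 0.39 ± 0.16 and Acss2, which makes cytosolic acetyl-CoA, by 0.34 ± 0.10. The desaturase Scd2 differed by 1.10 ± 0.36, with wild-type pools spread from 5.76 to 7.24 and POR-null pools at 7.28 to 7.54; its other 2 probe sets gave 0.41 and 0.62.

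Fatty acid oxidation leaned the other way. Of 33 genes of mitochondrial and peroxisomal oxidation and other PPAR-alpha targets, 27 were below 0, and 8 had all POR-null pools lower against 2 with all higher. Over all genes 45.5% were above 0, 5.59% had all POR-null pools lower and 3.77% all higher. Slc25a20, the mitochondrial carrier of acylcarnitines, read 8.77, 8.86 and 8.88 against 8.41, 8.48 and 8.37 and differed by -0.42 ± 0.09 (limma adjusted p 0.401 in 12 arrays, 0.137 in 6). The long-chain dehydrogenases Acadl and Acadvl differed by -0.42 ± 0.15 and -0.26 ± 0.09, Hadhb, a subunit of the trifunctional protein, by -0.20 ± 0.09, and Ppara itself by -0.39 ± 0.12. None passed in either model. Oxidative phosphorylation gave small values of the same sign, 42 of 54 genes below 0 with a median of -0.06. Its 9 separated genes, all lower, included Uqcrb at -0.15 ± 0.07 and Ndufa8 at -0.15 ± 0.08. Both lists also leaned low on the control diet, with medians of -0.15 for fatty acid oxidation, against -0.08 on quercetin, and -0.11 for oxidative phosphorylation. Acadl differed there by -1.01 ± 0.15.

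**Figure D3:**
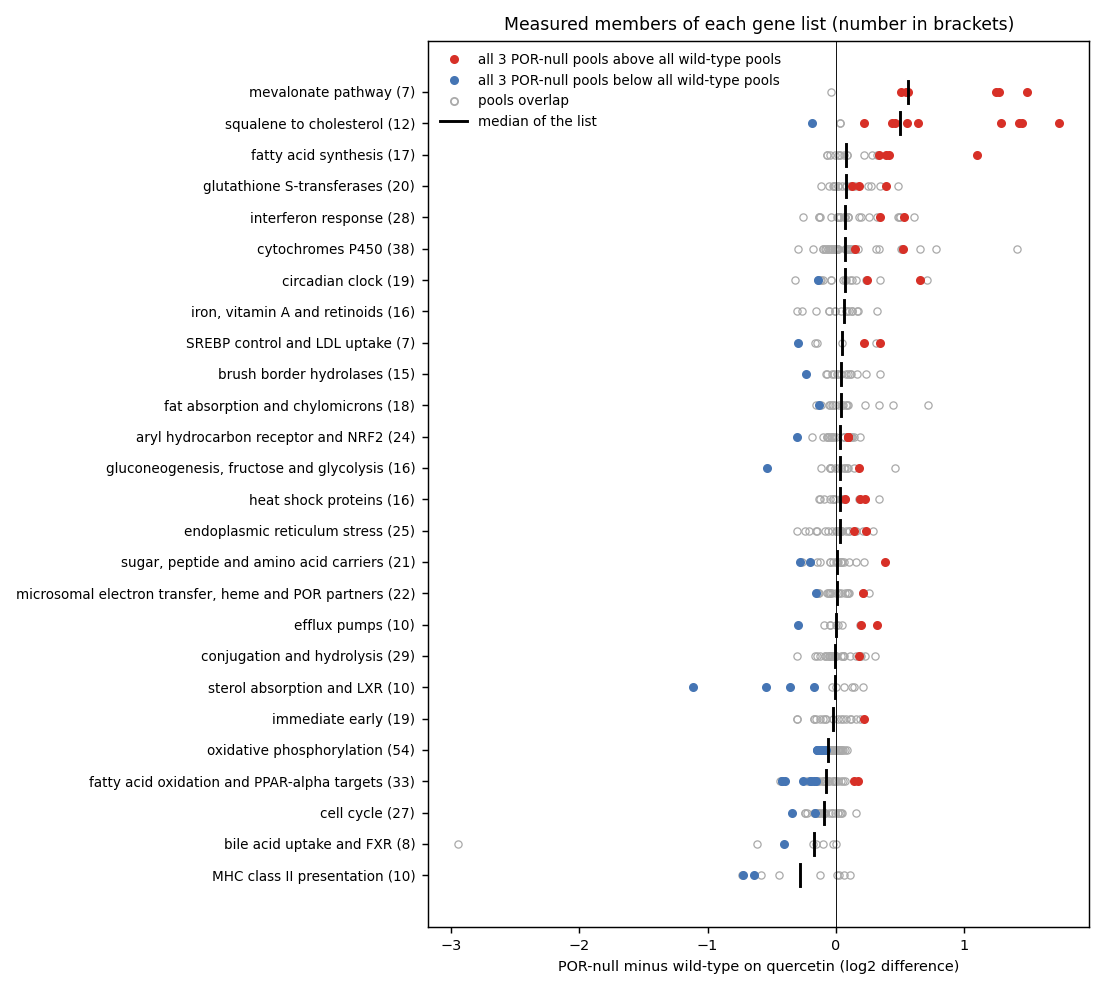
Each point is 1 measured gene of a list, placed by its log2 difference between POR-null and wild-type pools on quercetin (x axis); red points have all 3 POR-null pools above the wild-type pools, blue points all 3 below, and open points overlap. Black bars are list medians, from 0.56 for the mevalonate pathway to -0.28 for MHC class II presentation, and the numbers in brackets are the genes measured.

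Outside sterol metabolism, 6 genes besides Abca1 passed in the 6 arrays, and 4 of these were higher in POR-null mice. Krt12, a keratin known from corneal epithelium, read 6.33, 5.83 and 6.09 in wild-type pools and 7.31, 7.18 and 7.01 in POR-null pools, a difference of 1.08 ± 0.26 (limma adjusted p 0.00488 in 6 arrays, 0.541 in 12). It was the one gene outside sterol synthesis called in the 6-array model with each array left out in turn. The dimmer probe set of Krt12 differed by 0.66 ± 0.25, with separated pools, and did not pass (limma adjusted p 0.246 in 6 arrays). Aldoc, a glycolytic aldolase, read 6.72, 6.18 and 6.5 against 7.22, 7.19 and 7.37 and differed by 0.79 ± 0.21 (limma adjusted p 0.0457 in 6 arrays, 0.703 in 12), while its dimmer probe set gave -0.06. Both genes stood apart between the genotypes without overlap at the called probe set.

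Dbp, a transcription factor of the circadian output, passed at its second probe set, with 5.53, 5.44 and 5.9 in wild-type pools and 6.66, 6.28 and 6.54 in POR-null pools, a difference of 0.87 ± 0.29 (limma adjusted p 0.0348 in 6 arrays, 0.997 in 12). That probe set was the brighter of the 2 but of a type that can cross-hybridise. At the dimmer one, which stands for the gene in the lists, Dbp differed by 0.66 ± 0.28 and did not pass. Other clock genes leaned with it in part: Nr1d2 was at 0.71 ± 0.30 and Nr1d1 at 0.34 ± 0.27, with overlapping pools, and Arntl, which cycles in the opposite phase, at -0.32 ± 0.18. Of 19 clock genes, 2 were separated higher and 1 lower, against 3.77% and 5.59% of all genes. The hour of sampling was not given per pool.

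Ada, adenosine deaminase, which is abundant in the upper small intestine, read 11.66, 11.4 and 11.62 in wild-type pools and 12.13, 12.4 and 12.3 in POR-null pools. It differed by 0.72 ± 0.18 (limma adjusted p 0.0227 in 6 arrays, 0.616 in 12). Cubn, cubilin, the receptor for the intrinsic factor and vitamin B12 complex, is typical of the lower small intestine and read 11.32, 11.33 and 11.3 against 10.68, 10.63 and 10.81. It differed by -0.61 ± 0.15 (limma adjusted p 0.0146 in 6 arrays, 0.592 in 12) at this probe set, of a type that can cross-hybridise. The other probe set of Cubn, dimmer and the one that stands for the gene in the lists, differed by -0.53 ± 0.19. Its pools were again apart, but it did not pass (limma adjusted p 0.246 in 6 arrays).

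Sdc4, a heparan sulphate proteoglycan of the cell surface, gave opposite results with its 2 probe sets. The one that passed read 8.66, 8.33 and 8.05 in wild-type pools and 7.09, 7.08 and 6.49 in POR-null pools, a difference of -1.46 ± 0.32 (limma adjusted p 0.00623 in 6 arrays, 0.415 in 12). The other, slightly brighter, read 7.39, 7.98 and 7.92 against 8.31, 8.29 and 8.21, a difference of 0.51 ± 0.14 that did not pass. No direction can be given for Sdc4 as a gene.

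**Figure D4:**
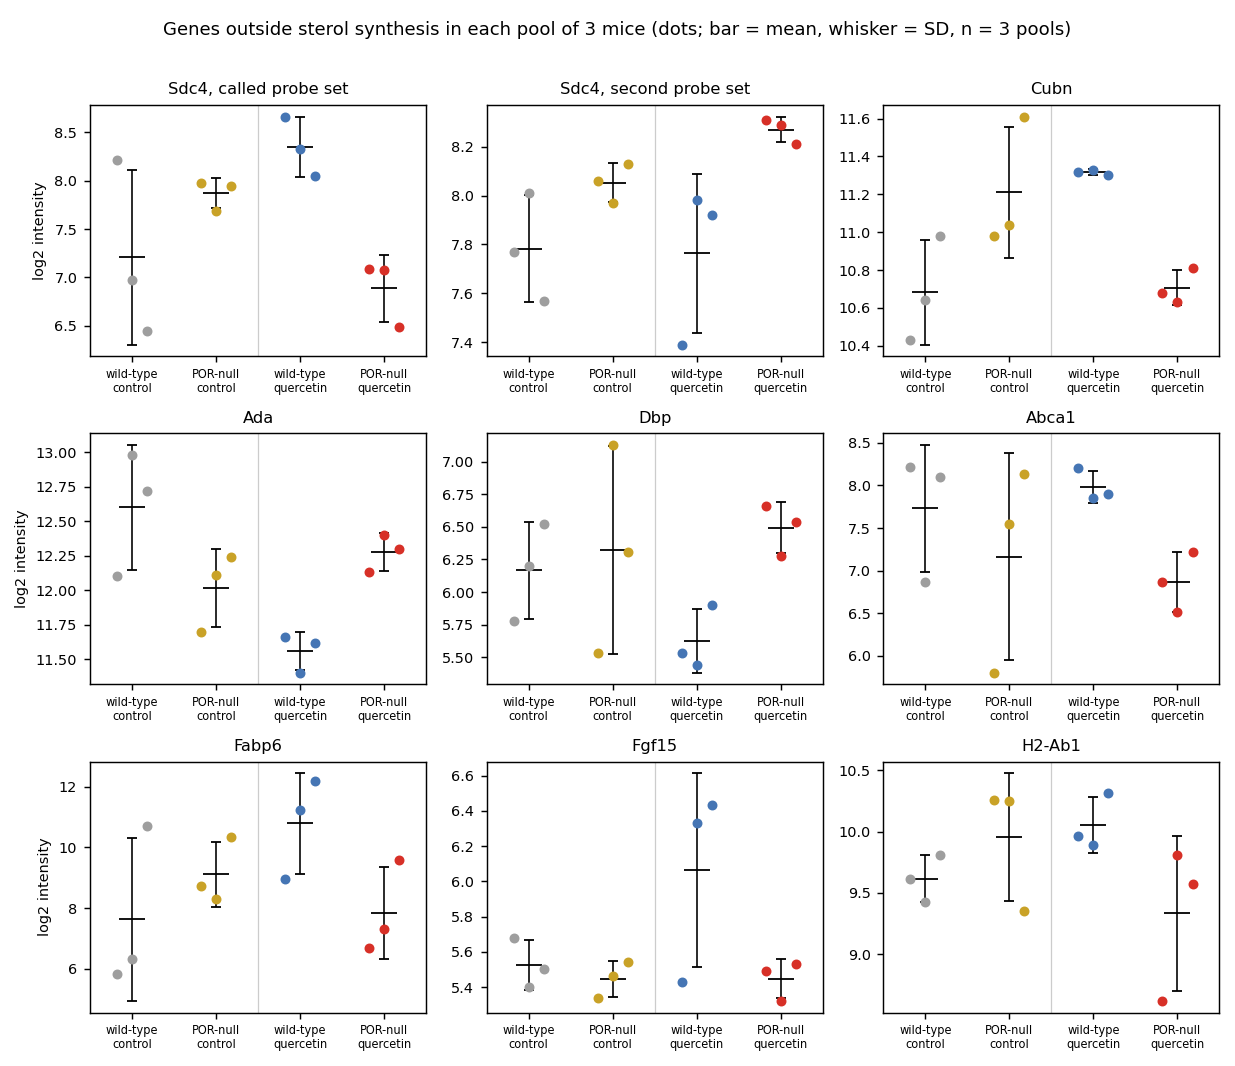
Log2 intensity (y axis) in each pool of 3 mice for genes outside sterol synthesis, in the 4 groups of genotype and diet; points are pools, the bar is the mean and the whisker the SD (n = 3). Both probe sets of Sdc4 are drawn and lie in opposite orders on quercetin, and in Fabp6 and Fgf15 wild-type quercetin pool 1 (8.96 and 5.43) lies below the other 2 wild-type pools.

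Genes of the lower small intestine leaned low in POR-null pools on quercetin and high on the control diet. Of 12 distal markers, 11 were below 0 and 4 had all POR-null pools lower, where 5.59% of all genes did, with a median of -0.27 on quercetin. The 1 marker above 0 went clearly the other way, at 0.90 with an unadjusted limma p under 0.05, though its pools overlapped. On the control diet 10 of the 12 were above 0, 3 had all POR-null pools higher, where 5.27% of all genes did, 0 had all lower, and the median was 0.21; the difference between the diets was not tested for the list as a whole. Of 13 proximal markers, 8 were above 0 on quercetin with a median of 0.08, which was 0.0 without wild-type quercetin pool 3. Fabp6, the ileal bile acid binding protein, had the largest difference of all genes, -2.94 ± 1.10, yet its pools overlapped, at 8.96, 11.25 and 12.18 in wild-type mice and 6.69, 7.3 and 9.57 in POR-null mice. Fgf15, the ileal hormone that represses bile acid synthesis in the liver, read 5.43, 6.33 and 6.43 against 5.49, 5.32 and 5.53. Wild-type pool 1 was thus as low as the POR-null pools in Fgf15, and neither gene passed in either model. With wild-type quercetin pool 1 left out of the 12-array model, Fgf15 was its 1 call, at -0.93. On the control diet Fabp6 differed by 1.497 ± 1.105, and its genotype by diet interaction of -4.44 ± 1.56 did not pass (limma adjusted p 0.956, unadjusted 0.0125).

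Slc51a, a subunit of the basolateral bile acid exporter, differed by -0.41 ± 0.12, Guca2a, guanylin, by -0.31 ± 0.10 and Osr2 by -0.31 ± 0.11, each with separated pools. All 8 measured genes of bile acid uptake and FXR were below 0, with a median of -0.17, and 1 of them, Slc51a, was separated, against 5.59% of all genes in that direction. That median was -0.40 without wild-type quercetin pool 1 and -0.07 without wild-type quercetin pool 3, and on the control diet it was 0.07. The summed level of the distal markers, as the mean of log2 values centred over 12 arrays, was -0.04, 0.33 and 0.52 in wild-type quercetin pools and -0.15, -0.32 and 0.06 in POR-null pools. The proximal markers gave 0.05, -0.18 and -0.32 against 0.04, -0.03 and -0.1. The lists overlap with the results, since Ada is a proximal marker and Cubn a distal one, and in such tissue samples fewer cells of a type and less RNA per cell cannot be told apart. The part of the sampled position along the intestine in Ada, Cubn, Fabp6 and Fgf15 was not tested.

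Cdx2, the transcription factor that sets intestinal identity, read 8.69, 9.6 and 9.05 in wild-type pools and 9.86, 9.89 and 9.72 in POR-null pools, a difference of 0.71 ± 0.16 that its second probe set matched at 0.76. It did not pass in either model (limma adjusted p 0.424 in 12 arrays, 0.372 in 6), and without wild-type quercetin pool 2 it was the 1 call of the 12-array model, at 0.95. Gata5, another intestinal factor, differed by -0.55 ± 0.16, with 8.47, 8.88 and 8.36 against 8.1, 7.94 and 8.02. Bco2, a carotenoid-cleaving enzyme, differed by -0.81 ± 0.23, with POR-null pools 1 and 2 at 7.32 and 7.28 and pool 3, at 8.43, within the wild-type range; without that pool it was the 1 call of the 12-array model, at -1.19.

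Among the genes with the smallest p or the largest differences, several outside the lists were lower in every POR-null pool. Tcim read 8.38, 8.74 and 8.44 against 8.02, 7.88 and 7.95, a difference of -0.57 ± 0.11. Akr1c14, a hydroxysteroid dehydrogenase, read 6.21, 5.24 and 5.42 against 4.81, 4.67 and 4.6, a difference of -0.93 ± 0.19. Mtfmt, the mitochondrial formyltransferase of the initiator transfer RNA, differed by -0.39 ± 0.07, Lama3, a laminin chain of the basement membrane, by -0.49 ± 0.11, and Myo5b, the motor of apical recycling, by -0.43 ± 0.09. None of these 5 passed in either model, with limma adjusted p values of 0.373 to 0.415 in 12 arrays.

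In the other direction, the epithelial protease Prss30 read 9.42, 9.37 and 9.68 against 10.09, 9.98 and 9.92, a difference of 0.51 ± 0.10. Lgmn, the lysosomal protease legumain, differed by 0.75 ± 0.18, and Max, the partner of MYC, by 1.12 ± 0.31. In Max the wild-type pools ran from 7.17 to 8.85 and the POR-null pools from 9.29 to 9.42, and wild-type pool 1 was the lowest of all. Serinc3 differed by 0.51 ± 0.11 and Raly by 0.43 ± 0.09, and none of the 5 passed. In all, 14 genes differed by more than 1 log2 unit, 11 higher and 3 lower, and 11 of these had separated pools; the exceptions were Fabp6, St3gal4 (-1.23) and Cyp2c29 (1.41).

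Xenobiotic genes gave few separated pools. Of 38 cytochromes P450 in a list that leaves out Cyp51, counted above among the sterol enzymes, 24 were above 0, 2 were separated, both higher in POR-null mice, and 0 passed. That count is close to the 3.77% of all genes separated in that direction. Cyp3a25 read 10.35, 9.89 and 9.75 against 10.49, 10.59 and 10.47, a difference of 0.52 ± 0.17, and Cyp3a11, the main drug-oxidising P450 of the mouse intestine, read 12.48, 12 and 11.35 against 12.55, 12.47 and 12.32, a difference of 0.50 ± 0.19. Cyp2b10, a target of the receptor CAR, differed by 0.78 ± 0.30 with overlapping pools. In all 3 genes, wild-type quercetin pool 3 was the lowest of the 6 pools. Cyp1a1, the classic target of the aryl hydrocarbon receptor, was at 0.14 ± 0.15, and Nqo1, a target of NRF2, at -0.18 ± 0.13.

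Of 20 glutathione S-transferases, 14 were above 0 and 3 were separated, all higher, where 3.77% of all genes were. On the control diet 3 were above 0. The mu-class genes Gstm1, Gstm3, Gstm6 and Gstm2 differed by 0.48 ± 0.23, 0.34 ± 0.18, 0.39 ± 0.19 and 0.27 ± 0.15, again with wild-type pool 3 lowest. These members share sequence, so their probe sets may not be independent. Among the partners of the reductase, in heme synthesis and microsomal electron transfer, 22 genes had a median of 0.01, with Alas1, the first enzyme of heme synthesis, at 0.21 ± 0.11 and the cytochrome b5 gene Cyb5b at 0.26 ± 0.14. Slc15a1, the peptide transporter of the brush border, differed by 0.38 ± 0.10 and G6pc, glucose-6-phosphatase, by -0.54 ± 0.16, both with separated pools and without passing.

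Immune genes varied unevenly between pools. H2-Ab1, an MHC class II chain, read 9.96, 9.89 and 10.31 in wild-type pools and 8.62, 9.81 and 9.57 in POR-null pools, a difference of -0.72 ± 0.27. POR-null pool 1 was the lowest in H2-Ab1, H2-Aa, H2-Eb1 and Cd74, and only H2-Ab1 and H2-Eb1 (-0.64 ± 0.23) had separated pools among the 10 genes of the list. Over all genes 5.59% were separated with POR-null pools lower. The median of the list was -0.28, or -0.14 without POR-null quercetin pool 1, and 0.20 on the control diet. Macrophage and dendritic cell markers had a median of -0.02, with per-pool levels of -0.15 to 0.16 in wild-type and -0.02 to 0.07 in POR-null quercetin pools, and their part in the class II values was not tested. The integrin Itgae of intraepithelial lymphocytes differed by -0.38 ± 0.12, with separated pools, within a list of 15 T cell genes whose median was -0.11 on quercetin and 0.28 on the control diet, where 14 were above 0.

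Interferon response genes were above 0 in 23 of 28 on quercetin, against 9 on the control diet, and 2 were separated on quercetin: Oasl1 at 0.53 ± 0.14 and Bst2 at 0.34 ± 0.11. Both were higher, as were 3.77% of all genes by the same count. The larger values of Ifit1 (0.61 ± 0.40) and Ifit3 (0.49 ± 0.31) came with POR-null pool 3 below all wild-type pools. The plasma cell genes Igha and Jchain were at 0.64 ± 0.34 and 0.60 ± 0.38. None of these passed.

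Markers of other cell types were then compared between the genotypes on quercetin. Apart from the distal markers, the medians of the marker lists lay between -0.11 for T cells and 0.11 for B and plasma cells. With 1 array left out, the T cell median ran from -0.19 without wild-type quercetin pool 1 to -0.03 without wild-type quercetin pool 3. That of B and plasma cells ran from -0.03 without POR-null quercetin pool 3 to 0.31 without POR-null quercetin pool 1. Smooth muscle, which shows how deep the scraping went, had a median of 0.04, with per-pool levels of -0.12, -0.16 and 0.06 in wild-type pools and 0.16, -0.18 and -0.09 in POR-null pools. Enterocyte markers had a median of 0.02 and crypt stem cell markers 0.03. The part of cell composition in the sterol values was not tested.

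The comparison was then set beside that of the same genotypes on the control diet, which shares no array with it. The 19 sterol enzymes had a median difference of 0.55 on quercetin, or 1.46-fold, and 0.59 on the control diet. On each diet 17 were above 0, though not the same 17. On quercetin 15 had separated pools with POR-null higher, where 3.77% of all genes did, and on the control diet 5, where 5.27% of all genes did. Of the 24 probe sets called in the 6 arrays, 21 had the same sign on the control diet, against 49.4% of all probe sets, and 2 had separated pools there. The 24 are not independent, since 15 belong to sterol genes and 4 to Hmgcs1 alone. On the control diet 0 probe sets passed in the 12-array model (0.0%).

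A difference that changes with the diet is tested by the genotype by diet interaction, and 0 of 22626 probe sets passed it (0.0%, lowest limma adjusted p 0.651, 1141 at an unadjusted p under 0.05). Sterol genes had interaction values from -0.06 ± 0.55 for Sqle to 0.74 ± 0.53 for Msmo1 among the 8 called enzymes, with unadjusted p from 0.0965 (Hsd17b7) to 0.923 (Fdft1). Outside the called enzymes, Lss had an interaction of -0.54 ± 0.14 that did not pass (limma adjusted p 0.935, unadjusted 0.00183). All its POR-null pools were higher on the control diet, at 0.36 ± 0.10, and all lower on quercetin. Ada, Cubn and the called probe set of Sdc4 were the 3 exceptions to the same sign on both diets. Ada was lower on the control diet by -0.58 ± 0.18 and its interaction was 1.30 ± 0.26, with wild-type pools at 12.1 to 12.98 on the control diet. Cubn was at 0.53 ± 0.15 on the control diet, an interaction of -1.14 ± 0.21, and Sdc4 at 0.66 ± 0.32, an interaction of -2.12 ± 0.45. Their unadjusted limma p of 0.000159, 9.51e-05 and 0.00027 did not pass after adjustment.

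**Figure D5:**
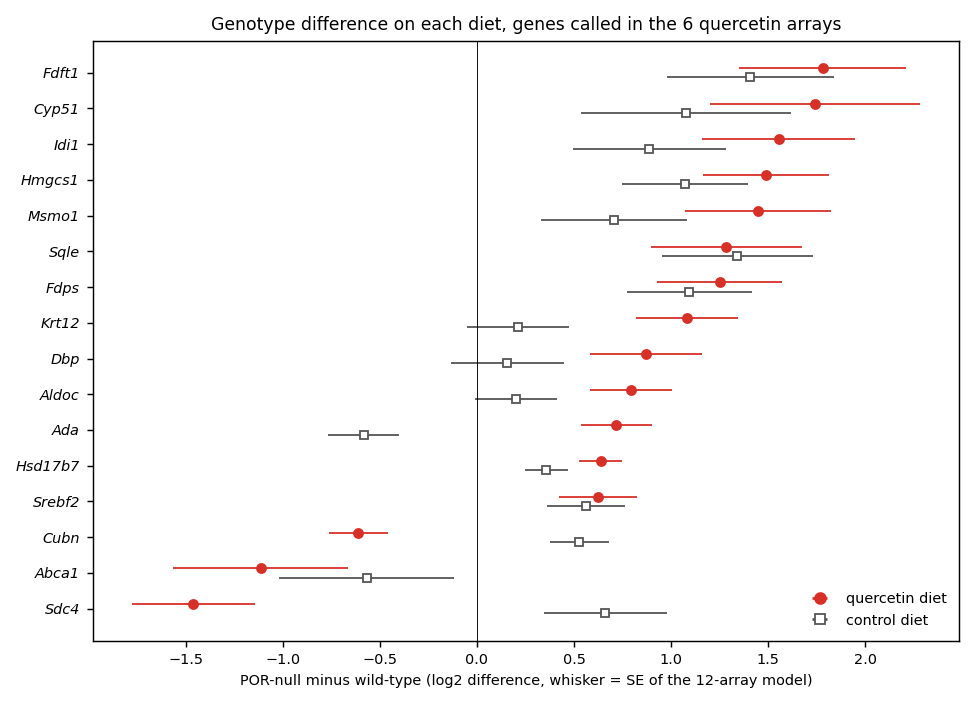
Log2 difference between POR-null and wild-type pools (x axis) on the quercetin diet (filled circles) and the control diet (open squares) for the 16 named genes called in the 6 quercetin arrays, each at its called probe set with the lowest p; whiskers are the SE of the 12-array model (n = 3 pools in each group). The 9 sterol genes lie right of 0 on both diets, while Ada, Cubn and Sdc4 lie on opposite sides of 0.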

How the data were processed

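RNA of 12 pools of jejunal epithelium was hybridised by the authors to 1-colour Affymetrix 430A arrays, 1 pool per array. The authors deposited 1 log2 intensity for each probe set and array. The submitters' processing notes list MAS5 and RMA but give neither a role, so the tool behind the log2 scale is unknown here. With array medians of 5.94 to 6.01 the log2 values were used as deposited by the authors, without further normalization. Precision is limited by 3 arrays per group.

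Of 22690 probe sets, 64 controls were left out and 22626 tested. Per the platform table, 20380 had 1 gene symbol, 691 several and 1555 none, and 20351 of the first kind were found in the RefSeq table, where 0 symbols needed an update. Each gene is read from the brightest of its own probe sets by the mean over 12 arrays, leaving out cross-hybridising types where it has another (12393 genes); a gene that passed at another probe set is so marked. The test was limma 3.58.1 in R 4.3.3 with a mean per group, fitted to 12 arrays (8 residual and 6.75 prior degrees of freedom) and, as an alternative, to the 6 quercetin arrays (4 and 7.13). Moderated two-sided p were adjusted by Benjamini-Hochberg over all probe sets and called under 0.05. With 3 pools against 3, a two-sided exact test of a single value cannot go under 0.1, so none is given. The code was tested on simulated data.

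Named genes were the smallest p and largest differences in each direction, the leading members of each list and every sterol enzyme. Genes called in the 6 arrays are also described, and Aldoc, Cubn and Sdc4 among them are outside the named genes. The genes, lists and tests were chosen with earlier results of these data known, and lists are described by counts and medians only. The labels do not say whether mice of 1 pool shared a cage. Same-numbered pools of the 2 genotypes had residual correlations of 0.185, 0.0198 and -0.0317, so the numbers were not taken to pair them. Alternatives were other normalizations, a filter on dim probe sets, other variance models, array weights, the replicate block, the mean of all probe sets of a gene and leaving out each array; those on the 6 arrays alone were added after seeing the data. Python 3.11.15 with matplotlib 3.10.9 made the figures.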

Additional observations from a re-analysis of the deposited data

How the results depend on the processing

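The count of 0 calls in the 12-array model became 24 in the 6 quercetin arrays and 0 to 19 with 1 array left out, 19 of them without POR-null control pool 3 and 1 at most without any other. The count of 24 in the 6 arrays was 16 to 44 with 1 array left out; without wild-type quercetin pool 1, 44 were called, 20 of the 24 among them. With the replicate block the 6 arrays gave 29 calls, and the block on the 12 arrays gave 0. Welch's test per probe set called 0 (818 at an unadjusted p under 0.05). Interaction calls were 0 to 2, the 2 without wild-type control pool 1. Probe sets with pools that do not overlap numbered 1104 without dim probe sets and 1230 with the mean of all probe sets of a gene, both with fewer features tested, and 3894 to 4947 with 1 quercetin array left out, where fewer pools must be separated. Of such probe sets, 41.07% were higher in POR-null pools as deposited, 46.73% after quantile normalization and 50.54% after median centring. The low lean of the separated probe sets thus depended on the scale. The median of the mevalonate genes was 0.907 without dim probe sets (6 genes left) and 0.478 to 0.67 with 1 array left out. Of 215 named genes, 17 changed sign under any of 21 settings, and none of these was called in the 6 arrays. The 215 did not include Aldoc, Cubn and Sdc4, which were called there. For these genes the count says nothing, and the probe sets of Sdc4 had opposite signs, at -1.46 and 0.51. Of 45 list medians, 23 changed sign. Few arrays limit what can be called, and probe sets near the lowest intensities give compressed differences.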
